A study of Mus musculus with 2 samples.

Results

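Integrin subunits are the chains of the receptors that tie endothelial cells (ECs) to the matrix, and 10 of them (Itga1, Itga2, Itga3, Itga5, Itga6, Itga9, Itgav, Itgb1, Itgb3 and Itgb5) were followed through the vessel types of the mouse lung 6 h after B16-F10 melanoma cells reached it. They were taken by gene symbol from 32285 measured genes, and all 10 were found once. C57BL/6 mice, male and adult by the study's methods, had received phosphate-buffered saline (PBS, control) or 400000 cells of the mouse skin melanoma line B16-F10 in 100 µl through the tail vein. From their lungs, Pecam1-positive, Ptprc-negative cells were sorted, and from injected lungs the dye-labelled melanoma cells as well. Cells of the mice in a treatment were pooled into 1 library per group, so no comparison between the groups has a replicate, none was tested, and the intervals given cover counting error only. The labels give 2 mice per treatment and the study's methods give another number.

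An integrin is a pair of 1 alpha and 1 beta chain. The beta-1 chain (Itgb1) pairs with many alpha chains: Itga1 and Itga2 make collagen receptors, Itga3 and Itga6 laminin receptors, Itga5 the classical fibronectin receptor, and Itga9 binds tenascin and fibronectin variants and is known for its part in lymphatic valves. The alpha-v chain (Itgav) pairs with Itgb3, Itgb5 and others, and these receptors bind vitronectin and other matrix proteins with an RGD motif. In the lung, general capillary cells (gCap) and the thin aerocytes (aCap), which cover the gas exchange surface, lie on a laminin- and collagen IV-rich basement membrane.

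A UMI (unique molecular identifier) marks 1 captured RNA molecule. The limits were 1000 to 5000 genes per cell and a mitochondrial share of UMIs below 20%, and 7830 control and 7767 B16-F10 cells remained after removal of doublets. Of them, 7120 and 6316 lay in endothelial clusters that were used, and 18 kept cells of each library carried a barcode also found in the other. A further 691 control and 1290 B16-F10 cells (8.8% and 16.6% of kept cells) lay in mixed clusters. These had EC markers together with a marker list of other cells, such as red cells, platelets or mural cells, and were left out of all EC sums. The clusters were built without the integrin genes and named "-like" from marker genes. The summed level of the 8 gCap markers was 9380 CPM (UMIs per 1e+06 UMIs of the class) in control gCap-like ECs against 504 in aCap-like ECs, that of the 8 aCap markers was 6489 against 214 the other way round, and every marker of the 8 lymphatic (LEC) markers was present in LEC-like ECs of both libraries. There were 4889 control and 4507 B16-F10 gCap-like cells, 1446 and 967 aCap-like, 251 and 176 artery-like, 296 and 279 vein-like, and 58 and 51 LEC-like cells. A further endothelial cluster with no vessel name, led by Sox9, Csf2 and Fosl1, held 8 control and 307 B16-F10 cells (Csf2-led ECs), and 78 cells of the B16-F10 library were melanoma-like. Another unnamed endothelial cluster, led by Fabp4, Rbp7 and Aqp7, held 172 control and 29 B16-F10 cells (Fabp4-led ECs). Both unnamed clusters were counted among all ECs. Control gCap-like cells were shallower, with a median of 7306 UMIs against 8467 in the B16-F10 library.

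In GRCm38 (GENCODE M21), all 10 are protein-coding genes. Itga1 (chr13:114953096-115101964, minus strand) and Itga2 (chr13:114833081-114932100, minus strand) are neighbours on chromosome 13. Itga6 (chr2:71745616-71858416) and Itgav (chr2:83724397-83806916) lie on the plus strand of chromosome 2. Itga3 (chr11:95044474-95076801, minus strand) and Itgb3 (chr11:104608000-104670476, plus strand) share chromosome 11. The others are Itga5 (chr15:103344286-103366763, minus strand), Itga9 (chr9:118606690-118901003), Itgb1 (chr8:128685654-128733200) and Itgb5 (chr16:33829665-33949338), the last 3 on the plus strand. Itga1 spans Pelo on its own strand and Itga6 spans 2 predicted genes on its own strand, and reads from sequence that such genes share cannot be told apart.

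Promoters are shown for a pair of subunits that divided the capillary, Itga5 (high in gCap-like ECs) and Itgb5 (high in aCap-like ECs). Each is the 250 bases before the RefSeq start (GRCm38.p6), at chr15:103366792-103367041 on the minus strand and chr16:33829415-33829664 on the plus strand, with capitals marking the GC box GGGCGG or its other strand CCGCCC.
Itga5: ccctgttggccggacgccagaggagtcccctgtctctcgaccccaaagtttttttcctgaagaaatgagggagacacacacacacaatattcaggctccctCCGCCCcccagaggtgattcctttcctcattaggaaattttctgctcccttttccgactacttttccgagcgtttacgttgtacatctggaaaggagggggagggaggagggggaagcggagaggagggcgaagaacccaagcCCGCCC
Itgb5: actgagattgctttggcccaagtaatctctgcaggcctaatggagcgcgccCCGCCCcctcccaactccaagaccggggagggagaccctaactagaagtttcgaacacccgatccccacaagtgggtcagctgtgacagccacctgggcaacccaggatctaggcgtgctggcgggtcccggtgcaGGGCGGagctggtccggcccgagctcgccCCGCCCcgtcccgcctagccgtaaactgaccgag
The Itga5 window held 2 GC boxes and the Itgb5 window 3, and 32.9% of 27025 promoters of this length held at least 1. RefSeq windows were matched for 8 of the 10 subunits (all but Itga6 and Itgb3). None of the windows held the AP-1 letters TGANTCA (6.87% of all promoters), the CRE letters TGACGTCA (1.62%) or the STAT letters TTCNNNGAA (7.18%) on either strand. Since the GC box was the one motif matched, no match overlapped another motif. A match is a run of letters and not a measured site.

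In the control library, each subunit's level spanned more over the 5 vessel classes than it differed between the libraries in any one of them. Itgb1, the shared partner, was the most even: control levels were 737 CPM (vein-like), 647 (gCap-like), 611 (aCap-like), 591 (artery-like) and 568 (LEC-like), and the counting intervals of aCap-like, artery-like and LEC-like ECs overlapped in sequence. Over the 5 classes it spanned 0.38 on the log2 scale among control ECs and 0.21 among B16-F10 ECs. Itgav was the next most even, with a log2 span of 1.42 in control, highest in LEC-like ECs (121 CPM) and then in aCap-like ECs (75.8), while gCap-like (61.4), artery-like (58.2) and vein-like ECs (45.1) followed with overlapping neighbours.

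The capillary was divided by its laminin and fibronectin receptor chains. Itga6 had 428 CPM in control gCap-like ECs (15675 UMIs) and 8.55 in aCap-like ECs (112 UMIs), a 50.1-fold difference. Artery-like (356 CPM), vein-like (270) and LEC-like ECs (102) lay between and each was apart from its neighbour in the order. Itga5 likewise had 82.4 CPM in gCap-like and 3.89 in aCap-like ECs, 21.2-fold lower in the latter. Vein-like ECs had 303 UMIs and were highest, artery-like ECs had 78.4 CPM and LEC-like ECs 41.6, and gCap-like and artery-like ECs did not differ beyond counting error.

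On the other side of the capillary, aCap-like ECs had the highest Itga3, 422 CPM against 62.6 in gCap-like ECs (6.75-fold), and then came vein-like (55.1, overlapping gCap-like), artery-like (33.5) and LEC-like ECs (10.4). Itgb5 was at 222 CPM in control aCap-like and at 3.60 in gCap-like ECs, a 61.5-fold difference, and the remaining vessel classes (LEC-like with 4 UMIs, artery-like with 8 and vein-like with 5, beside gCap-like) overlapped their neighbours. Outside the vessel classes, Fabp4-led ECs had Itgb5 at 56.5 CPM in control (55 UMIs) and 93.8 with B16-F10 (16 UMIs). Of all endothelial Itgb5 UMIs, 93.4% in the control and 90.4% in the B16-F10 library came from aCap-like ECs. Itga2 was also highest in aCap-like ECs (149 CPM), then in gCap-like (113), artery-like (67.6) and vein-like ECs (52.2, overlapping), and LEC-like ECs had 3 UMIs (6.24 CPM).

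The collagen receptor chain Itga1 was highest in gCap-like ECs, with 1448 CPM in the control library. Vein-like (836) and artery-like ECs (829) overlapped, and aCap-like (306) and LEC-like ECs (229) had less. Itga9 was highest in lymphatic and larger-vessel ECs, and Itgb3 in vein-like and LEC-like ECs. For Itga9 the CPM was 343 (LEC-like), 87.4 (vein-like), 86.3 (artery-like, overlapping vein-like), 11.7 (gCap-like) and 2.06 (aCap-like). Itgb3 reached 49.0 CPM in vein-like ECs and 27.0 in the LEC-like class (13 UMIs, overlapping), against 3.45 in artery-like ECs, 2.51 in gCap-like and 1.07 in aCap-like ECs, where the artery-like value (7 UMIs) overlapped the gCap-like one. The order of the highest class was the same in the B16-F10 library for every subunit but Itgb1, where gCap-like ECs (751) were above vein-like ECs (712).

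**Figure D1:**
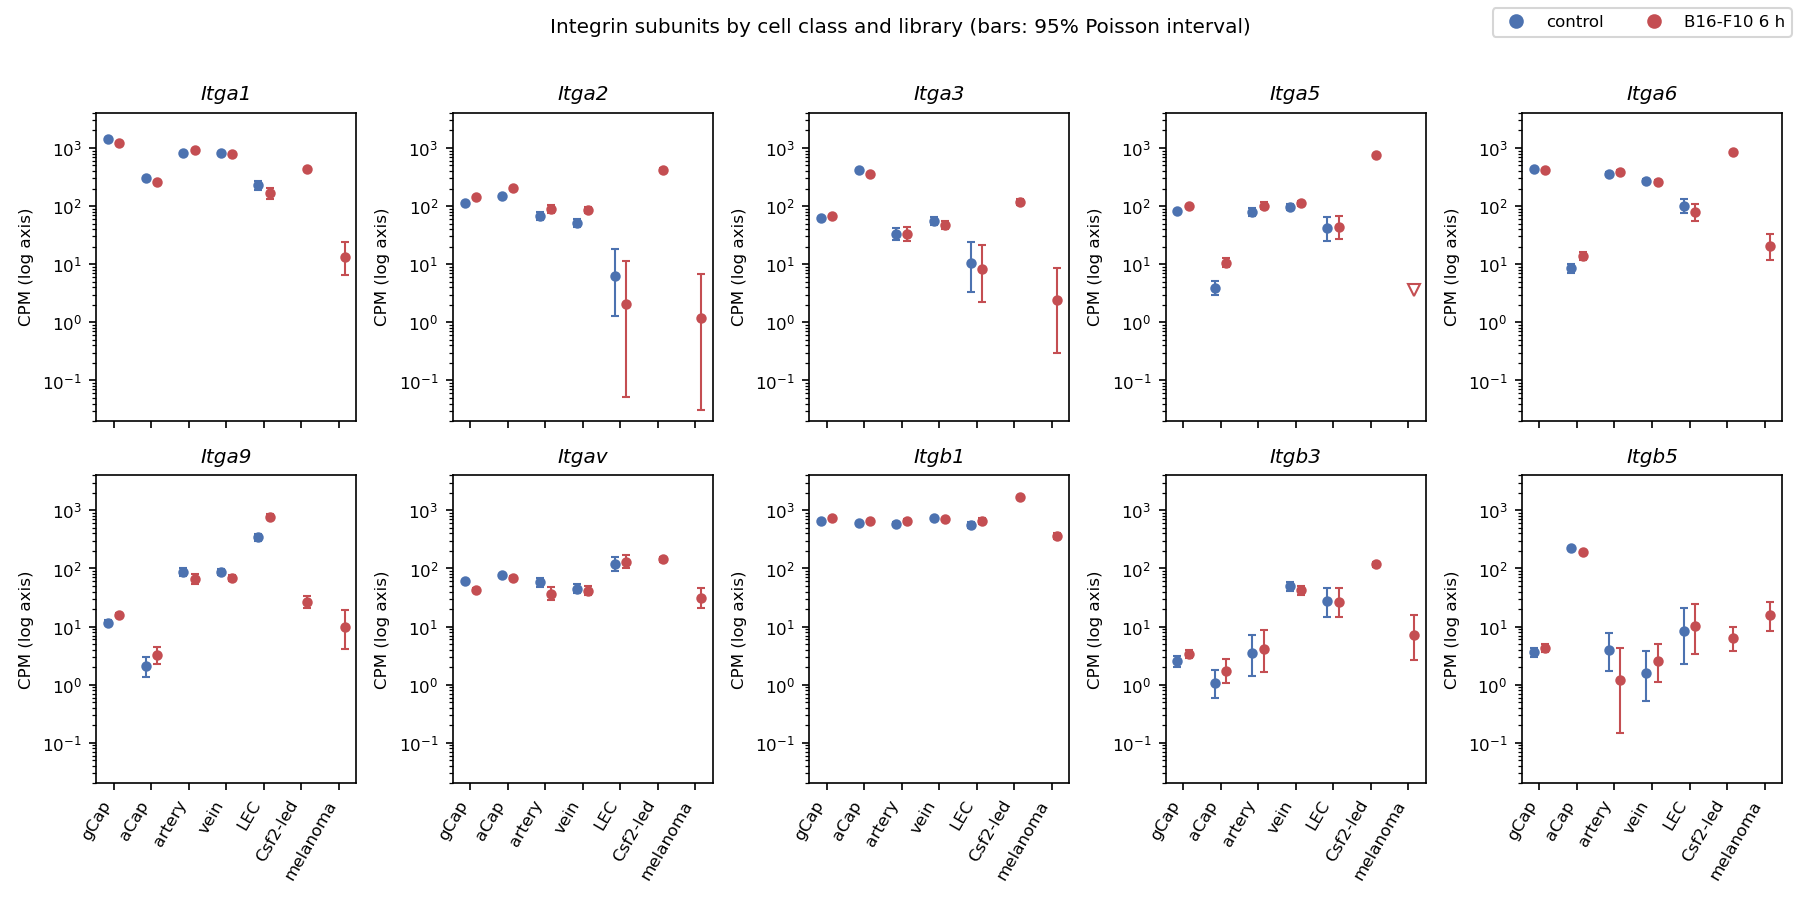
Level of each subunit (CPM, log axis) in the cell classes, control in blue and B16-F10 6 h in red; bars are 95% Poisson intervals and the open triangle is the limit of 3 counts for a class with no UMI. Itga6 and Itga5 are low and Itga3 and Itgb5 high in aCap-like ECs, Itga9 is highest in LEC-like ECs, and Itgb1 is near level; the 8 control cells of the Csf2-led cluster are not drawn.

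Low values can come from RNA free in the suspension. Judged by 10 lung epithelial genes, the free RNA seen in near-empty barcodes would supply aCap-like ECs with 2.20 and 3.40 CPM of Itga6 and 0.605 and 1.56 CPM of Itga5 (control and B16-F10). The gCap marker list had 504 and 543 CPM in aCap-like ECs, with all 8 markers present in both libraries. The part of either in the low aCap-like levels was not tested.

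For the 4 subunits that spanned most, the genes with the most similar levels over the 10 sums (5 classes by 2 libraries) are given as a description, since the sums share their libraries. For Itga9, Aebp1, Sulf2 and Lama4, a laminin chain, had Pearson r of 0.98 on log2(CPM + 1). For Itgb5 these were Chst1 (0.99), itself an aCap marker used for naming, Orai2 (0.98) and Fnbp1 (0.98), for Itga2 Esam, Clpb and Tmcc3 (each 0.99), and for Itga3 Bcas3os2, Ccdc68 and Fat1 (each 0.99).

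Between the libraries, no subunit differed 1.5-fold in gCap-like ECs, the largest class. A difference was called where it was at least 1.5-fold and its 95% counting interval lay on 1 side of 0. By this rule 0 of 10 subunits were called higher (7.28% of 13263 genes with at least 50 UMIs) and 0 lower (8.85%). By the interval alone, 6 were higher (28.6% of all genes) and 2 lower (34.5%), and their median log2 ratio was 0.23 beside -0.04 for all genes. These counts describe the libraries and not the conditions.

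Among alpha chains of gCap-like ECs, the collagen receptor chains differed in opposite directions. Itga1 was lower in the B16-F10 library, 1448 CPM in control and 1215 with B16-F10 (log2 ratio -0.25, 95% interval -0.27 to -0.23). Itga2 was higher, 113 and 145 CPM (0.37, 0.31 to 0.43). Itga1 was lower beyond counting error in 6 and higher in 0 of the 7 clusters that made up the class, and Itga2 higher in 5 and lower in 0.

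The vitronectin receptor chain Itgav was lower, 61.4 and 43.3 CPM (-0.50, -0.59 to -0.41), in 6 of 7 clusters beyond counting error. The fibronectin receptor chain Itga5 was a little higher, 82.4 and 99.3 CPM (0.27, 0.20 to 0.34), in 3 of 7 clusters. Itgb1 was higher, 647 and 751 CPM (0.22, 0.19 to 0.24), in 5 of 7 clusters.

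Of the laminin receptor chains, Itga6 did not differ beyond counting error in the gCap-like sum, 428 and 422 CPM (-0.02, -0.05 to 0.01), and within clusters it was higher in 2 and lower in 3. Itga3 went from 62.6 to 68.3 CPM (0.13, 0.05 to 0.21), and within 7 clusters it was higher in 1 and lower in 1. The low chains were Itga9, 11.7 and 16.1 CPM (0.47, 0.29 to 0.65), Itgb3, 92 and 134 UMIs (0.44, 0.04 to 0.83), and Itgb5, 132 and 168 UMIs (0.24, -0.10 to 0.58). Within clusters, Itga9 was higher beyond counting error in 3 of 7 and lower in 0. Itgb3 had enough UMIs in 2 clusters, and it was below 0 in both (-0.24 and -1.39), beyond counting error in 1. Its higher value in the sum was thus not seen within these clusters. With every cell thinned to 2000 UMIs, the sums of Itga9 (0.66) and Itgb3 (0.95) passed the 1.5-fold rule.

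In aCap-like ECs, 2 of 9 measured subunits were called higher (6.07% of 11102 genes) and 0 lower (7.39%). Both were chains of gCap-like ECs that were low in aCap-like ECs. Itga5 had 51 UMIs in control and 116 with B16-F10, 3.89 and 10.7 CPM (log2 ratio 1.45, 0.97 to 1.96), and Itga6 had 112 and 150 UMIs, 8.55 and 13.8 CPM (0.69, 0.33 to 1.06). Their B16-F10 levels were far under those of gCap-like ECs (99.3 and 422 CPM).

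The libraries filled the aCap-like class unequally. A deeper cluster (median 11261 UMIs) held 961 control and 900 B16-F10 cells, and a shallow cluster (median 4450 UMIs) held 485 and 67. In the deeper cluster alone, an alternative chosen after seeing the data, Itga5 was still called (1.36, 0.85 to 1.90), Itga6 was not (0.47, 0.09 to 0.85), and Itga2 was called (0.64, 0.54 to 0.74), as it was in the shallow cluster (0.60, 0.30 to 0.89). With at least 500 genes per cell, Itga6 was at 0.57, under the 1.5-fold line, and Itga2 at 0.65, over it.

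A UMI of Itga5 was found in 47 of 1446 control and 87 of 967 B16-F10 aCap-like cells, and in 41.7% and 53.3% of gCap-like cells, at median depths of 9156 and 11370 UMIs in aCap-like cells. Thinned to 2000 UMIs the aCap-like shares were 1.33% (95% exact interval 0.803 to 2.07) and 2.50% (1.61 to 3.69) for Itga5, and 1.54% (0.968 to 2.32) and 1.66% (0.955 to 2.69) for Itga6, intervals that overlap; 18 control and 6 B16-F10 cells were too shallow. With doublets kept, the Itga6 ratio was 0.20 (-0.02 to 0.43) and not called. With free RNA subtracted the ratios were 1.48 for Itga5 and 0.72 for Itga6.

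Of the chains highest in aCap-like ECs, Itga3 and Itgb5 were lower. Itga3 was at 422 and 355 CPM (-0.25, -0.31 to -0.19) and Itgb5 at 222 and 188 (-0.23, -0.32 to -0.15), both beyond counting error and under 1.5-fold. In the deeper cluster alone they were at -0.12 (-0.18 to -0.05) and -0.18 (-0.27 to -0.10), and Itga3 ranged from -0.44 to -0.05 over all alternatives. Itga1 was lower as in gCap-like ECs (306 and 262 CPM, -0.23) and Itga2 higher (149 and 202 CPM, 0.44, 0.36 to 0.53), while Itgb1 was close to level (0.09, 0.04 to 0.13). Itgav (75.8 and 69.4 CPM, -0.13) and Itga9 (27 and 35 UMIs, 0.64) did not differ beyond counting error, and Itgb3 had too few UMIs (14 and 19). By the interval alone, 4 of 9 were higher (27.9% of genes) and 3 lower (27.4%).

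In vein-like ECs, Itga2 was called higher, 163 and 273 UMIs, 52.2 and 87.0 CPM (log2 ratio 0.74, 0.45 to 1.03), as 1 of 9 measured subunits (4.57% of genes), and 0 were called lower (5.22%). With no fold limit, 1 was higher (12.3%) and 2 lower (15.2%). The Itga2 ratio was 0.48 with no upper limit of genes per cell, under the 1.5-fold line. Itgb3, whose capillary level is low, was at 49.0 and 42.0 CPM (-0.22, -0.57 to 0.12). Itga9 was lower, 87.4 and 68.8 CPM (-0.35, -0.61 to -0.08), and so was Itga1, 836 and 774 CPM (-0.11, -0.19 to -0.03). Itga3 (-0.22), Itga5 (0.20), Itga6 (-0.05), Itgav (-0.11) and Itgb1 (-0.05) did not differ beyond counting error, and Itgb5 had 5 and 8 UMIs. The summed level of the 8 mural markers in vein-like ECs was 158 and 96.8 CPM, and that of 5 red cell genes 511 and 3559; their part in these values was not tested.

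In artery-like ECs, Itgav was called lower, 118 and 62 UMIs, 58.2 and 37.1 CPM (-0.65, -1.12 to -0.20), as 1 of 8 measured subunits (5.95% of genes), with 0 called higher (6.72%). By the interval alone 4 were higher (16.3%) and 2 lower (14.5%). The Itgav ratio was under the 1.5-fold line with clusters from Seurat's integration (-0.49), with the mean of per-cell CPM (-0.40) and in cells with no UMI of other cells' markers (-0.48). Itga2 (67.6 and 89.7 CPM, 0.41), Itga5 (78.4 and 102 CPM, 0.38) and Itgb1 (591 and 669 CPM, 0.18) were higher beyond counting error, and Itga6 (0.11) and Itga3 (68 and 56 UMIs, both 33.5 CPM) were not apart. Itga1 was higher here, 829 and 929 CPM (0.16, 0.06 to 0.26), against lower values in the other 4 classes, but at -0.04 when the gene lists were kept in the clustering. Itga9 was at 86.3 and 65.7 CPM (-0.39, -0.75 to -0.04), and at 0.11 in cells with no UMI of other cells' markers.

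In LEC-like ECs, Itga9 stood out, with 165 UMIs in control and 376 with B16-F10, 343 and 781 CPM (log2 ratio 1.19, 0.92 to 1.46). It was the 1 of 5 measured subunits called higher (6.66% of 3977 genes), and 0 were called lower (6.03%). With no fold limit, 1 was higher (10.1%) and 1 lower (10.4%). A UMI of it was found in 45 of 58 control and 49 of 51 B16-F10 cells, and the median cell had 2 and 6 UMIs of it. Thinned to 2000 UMIs per cell, the shares were 36.2% (24.0 to 49.9) and 82.4% (69.1 to 91.6), against 0.28% and 0.31% in aCap-like ECs.

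The LEC-like ratio did not rest on 1 cell: without the cell with most Itga9 in each library it was 1.19 (0.91 to 1.47), and it lay between 0.89 and 1.27 over its alternatives. Only 5 control and 4 B16-F10 LEC-like cells had no UMI of other cells' markers, and in them Itga9 was not called. The 8 LEC markers summed to 29100 CPM in control and 38818 in the B16-F10 library, so the class itself was not alike in both, and whether this had a part in the Itga9 value was not tested. Itga1 was lower in LEC-like ECs, 110 and 80 UMIs (-0.46, -0.89 to -0.03), but higher with doublets kept (0.25). Itgav, 58 and 63 UMIs (0.12, -0.42 to 0.66), Itga6, 49 and 38 UMIs (-0.37, -1.02 to 0.27), and Itgb1, 273 and 315 UMIs (0.21, -0.03 to 0.44), did not differ beyond counting error.

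**Figure D2:**
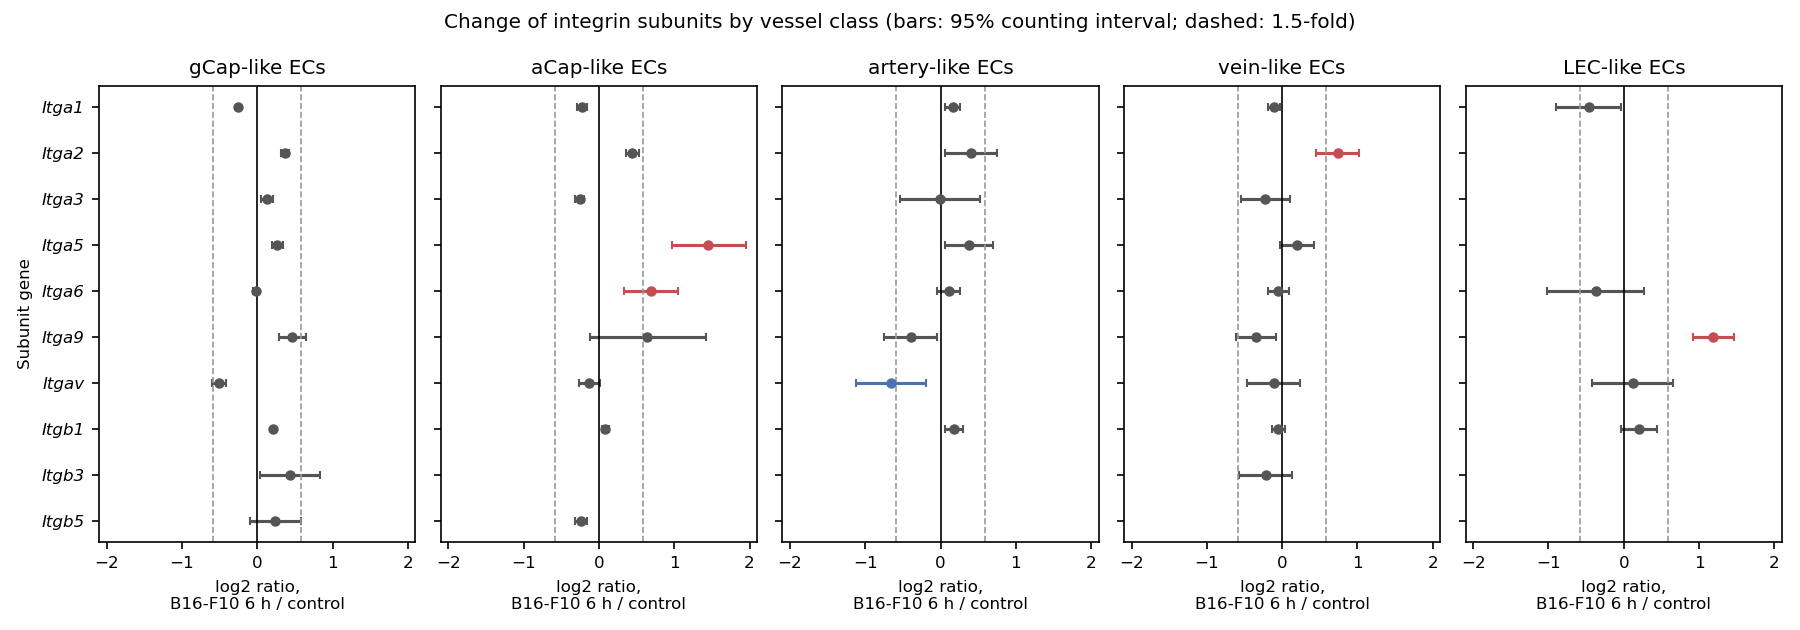
Log2 ratio of B16-F10 6 h over control for each subunit with at least 50 UMIs, by vessel class; bars are 95% counting intervals, dashed lines mark 1.5-fold, and red and blue mark called subunits. The calls are Itga5 and Itga6 in aCap-like, Itgav in artery-like, Itga2 in vein-like and Itga9 in LEC-like ECs, and none in gCap-like ECs.

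Summed over all ECs, the make-up of each library entered the values. Itga5 had 64.6 and 117 CPM (log2 ratio 0.86, 0.80 to 0.92) and Itgb3 5.02 and 11.4 (1.18, 0.98 to 1.38), and these 2 of 10 subunits were called higher (7.72% of 14385 genes), with 0 lower (10.7%). By the interval alone 6 were higher (29.6%) and 4 lower (38.6%). Without the Csf2-led ECs the ratios were 0.36 (0.30 to 0.43) and 0.14 (-0.10 to 0.38), and 0 subunits were called higher (6.42% of genes) or lower (9.85%), with 5 higher (29.3%) and 4 lower (36.7%) by the interval alone. Itgb5 was lower over all ECs, 55.1 and 38.5 CPM (-0.52, -0.59 to -0.44), while aCap-like cells, which hold most of it, made up 20.3% of control and 15.3% of B16-F10 ECs. Fewer cells of a type and less RNA per cell cannot be told apart in such a sum.

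The Csf2-led ECs of the B16-F10 library differed from gCap-like ECs in 9 of the 10 subunits. They had Itgb3 at 118 CPM (359 UMIs) against 3.40 in gCap-like ECs of the same library, 34.9-fold (log2 ratio 5.12, 4.83 to 5.42). Itga5 was at 762 against 99.3 CPM, 7.67-fold (2.94, 2.86 to 3.01). The cluster held 5.15% of the UMIs of B16-F10 ECs but 53.7% of the Itgb3 and 33.5% of the Itga5 UMIs.

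The same cells had more of the partner chains, Itgav at 144 against 43.3 CPM (1.73, 1.57 to 1.88) and Itgb1 at 1718 against 751 (1.19, 1.15 to 1.24). Itga2 was at 423 against 145 CPM (1.54), Itga6 at 869 against 422 (1.04), and Itga3 (0.78) and Itga9 (0.73) followed. Itga1, the chain highest in gCap-like ECs, was lower in them, 434 against 1215 CPM (-1.49, -1.57 to -1.41). Itgb5, with 19 UMIs, was not apart from gCap-like ECs (0.56, with an interval across 0). In this comparison 8 of 10 subunits were called higher, where 15.5% of 12235 genes were, and 1 lower, where 36.4% were, with a median over all genes of -0.38. The counts were also 8 and 1 by the interval alone (22.4% and 46% of genes).

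A UMI of Itgb3 was found in 128 of 307 Csf2-led cells (41.7%, 95% exact interval 36.1 to 47.4), in 2.64% of gCap-like and in 1.03% of aCap-like cells of that library. The 8 control cells of the cluster had 34 UMIs of Itga5 (424 CPM) and 0 of Itgb3, where the 95% Poisson interval reaches 46.0 CPM. Itgb3 is also a platelet gene, and the 6 platelet markers summed to 77.2 CPM in Csf2-led and 22.5 in gCap-like ECs, and the 8 mural markers to 263 and 43.5; their part in the Itgb3 value was not tested. In the 75 Csf2-led and 1666 gCap-like cells that had no UMI of other cells' markers, Itgb3 was at 130 against 2.79 CPM (5.55, 4.98 to 6.14) and Itga5 at 707 against 98.3 (2.85, 2.69 to 3.00), while Itga9 was no longer higher (-0.17, -1.14 to 0.66).

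The melanoma-like cells had a narrower set. Their 828086 UMIs held 300 of Itgb1, 362 CPM (95% Poisson interval 322 to 406), about 2.07-fold under gCap-like ECs of the same library (log2 ratio -1.05, -1.22 to -0.89). Itgav had 26 UMIs, 31.4 CPM, against 43.3 in gCap-like ECs (-0.46, -1.08 to 0.09), Itgb3 had 6 and Itga9 8, and these 3 were not apart from gCap-like ECs. Itgb5 had 13 UMIs, 15.7 CPM against 4.26 in gCap-like ECs (1.88, 0.94 to 2.70), but was lower than in all ECs (38.5 CPM, -1.29, -2.21 to -0.52).

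Itga5 had 0 UMIs in the melanoma-like cells, which allows up to 3.62 CPM and places it at least 27.4-fold lower than in gCap-like ECs. Itga6 had 17 UMIs (20.5 CPM, -4.36), Itga1 11 (13.3 CPM, -6.52), Itga3 2 and Itga2 1. Free RNA, by the epithelial genes 1.45% of their UMIs, would supply 6.55 CPM of Itga1, 2.90 of Itga6, 1.46 of Itga3 and 0.984 of Itga2. Of 10 subunits 1 was called higher (14.2% of 12204 genes) and 6 lower (49.7%), where Itga5 counts as lower. The counts by the interval alone were the same (15.6% and 50.8% of genes).

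**Figure D3:**
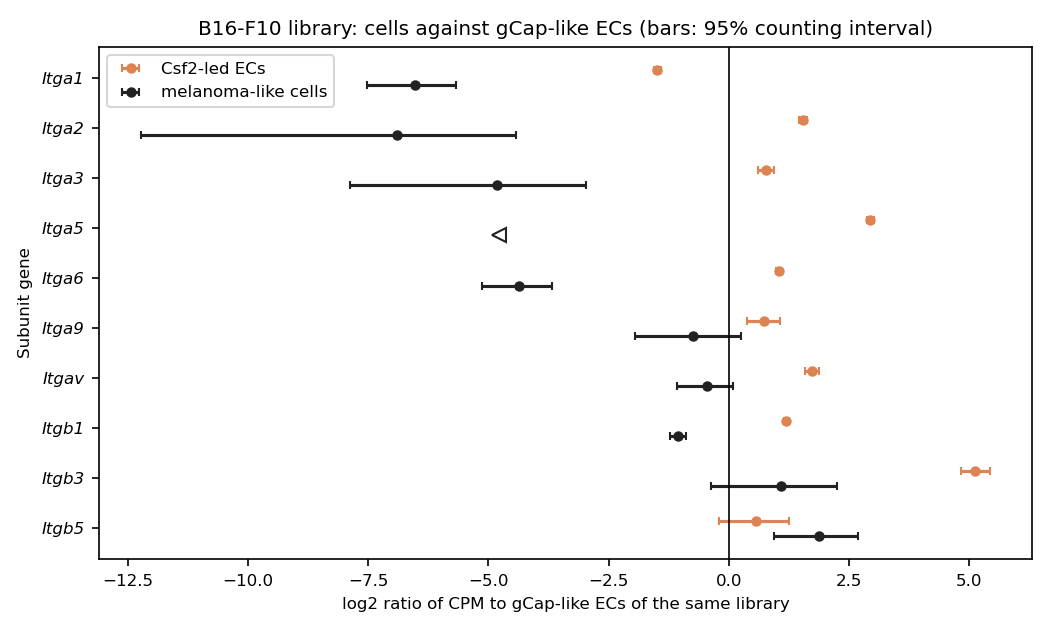
Log2 ratio of CPM to gCap-like ECs of the same library, for Csf2-led ECs (orange) and melanoma-like cells (black) with 95% counting intervals; the open triangle is an upper bound from the limit of 3 counts. Itgb3 (5.12) and Itga5 (2.94) are the highest ratios of Csf2-led ECs, and Itga1 is below 0 in both.

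The study named reactive capillary cells (rCap), gCap cells in which a shared set of genes is raised after cancer cell injection. Within gCap-like ECs, each cell of at least 2000 UMIs was thinned to that depth and scored by 45 of the study's rCap genes, a list chosen partly on these libraries and holding no subunit studied here. Cells above the 95th percentile of control, 36 UMIs, were rCap-high: 212 of 4827 control (4.39%) and 2411 of 4479 B16-F10 cells (53.8%).

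Subunits differed little with this state. In the B16-F10 library, Itga5 was at 107 CPM in rCap-high and 90.1 in other cells (log2 ratio 0.25, 0.16 to 0.35), Itgb1 at 785 and 712 (0.14), and Itga1 at 1104 and 1345 (-0.28, -0.31 to -0.26). Itgb3 had the largest ratio, 90 and 44 UMIs, 4.25 and 2.42 CPM (0.81, 0.28 to 1.37), and was the 1 subunit of 10 called higher (5.01% of 12082 genes), with 0 lower (5.8%). By the interval alone 4 were higher (21.6%) and 4 lower (28%). In control cells the Itgb3 values were 9 and 82 UMIs, 5.78 and 2.34 CPM (1.30, 0.12 to 2.30), but the interval crossed 0 with the 99th percentile (1.99, -0.32 to 3.58) and with the score at 4000 UMIs (0.92, -0.44 to 2.03). Between the libraries, Itgb3 did not differ beyond counting error in other cells (0.04, -0.52 to 0.59) or in rCap-high cells (-0.44, -1.43 to 0.73).

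Itga2 did not follow the score. It was higher in the B16-F10 library in cells that were not rCap-high, 113 and 155 CPM (0.46, 0.39 to 0.53), and in rCap-high cells, 100.2 and 137 CPM (0.45, 0.21 to 0.69), and within the B16-F10 library it was lower in rCap-high than in other cells (-0.18, -0.26 to -0.11). Itgav was lower in rCap-high cells of both libraries, 41.8 against 62.1 CPM in control (-0.57, -0.95 to -0.22) and 39.7 against 47.4 with B16-F10 (-0.26, -0.40 to -0.12). With the score at 4000 UMIs the control ratio was -0.20 (-0.54 to 0.12), not beyond counting error, and the B16-F10 ratio -0.24 (-0.38 to -0.10). It was also lower with B16-F10 among cells that were not rCap-high (-0.39, -0.50 to -0.27). In that last comparison 0 of 10 subunits were called higher (4.18% of 12664 genes) and 0 lower (5.08%), and by the interval alone 5 were higher (24.4%) and 2 lower (26.2%).

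**Figure D4:**
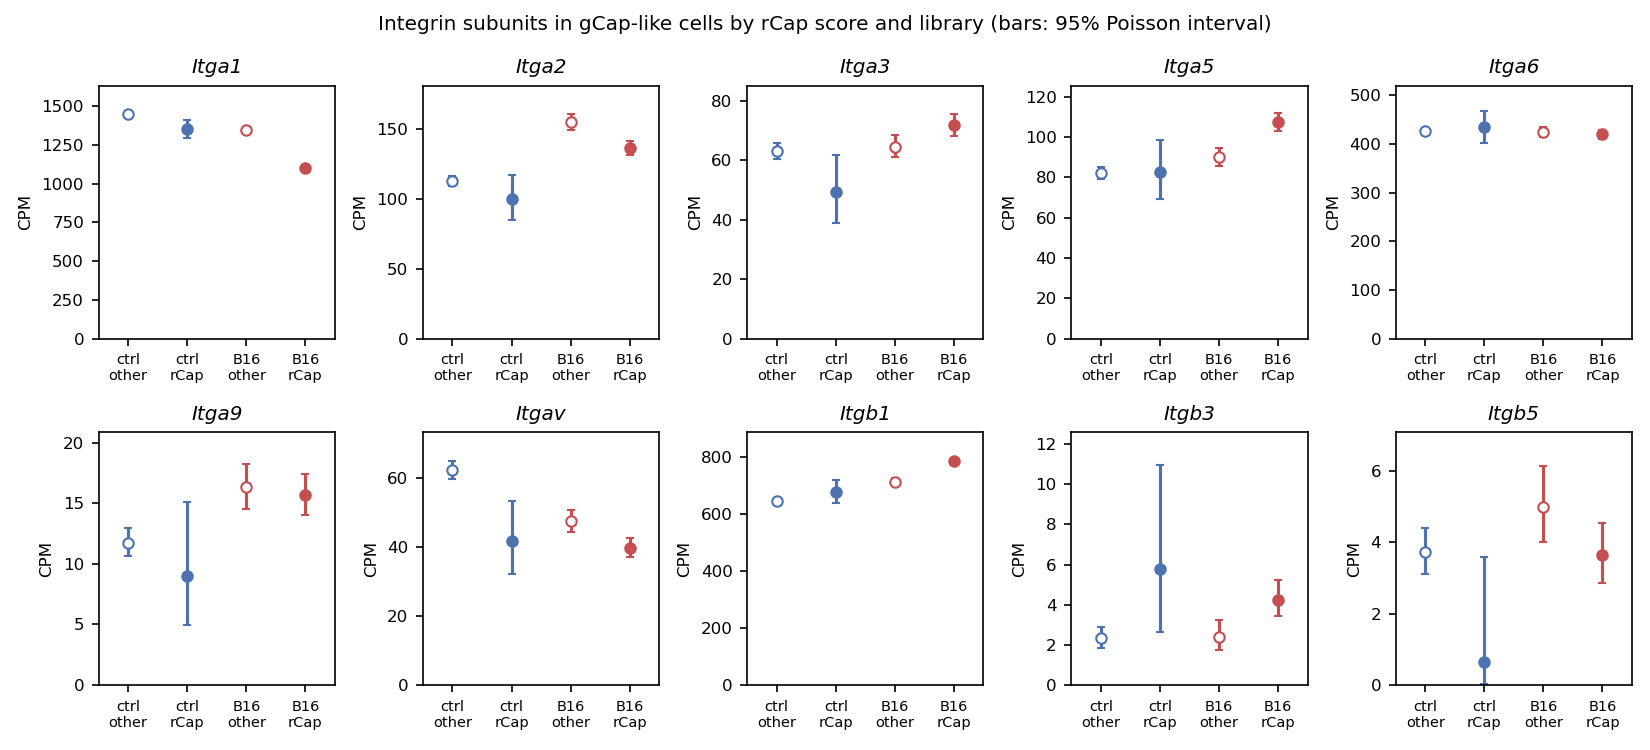
Subunit level (CPM) in gCap-like cells by library (control blue, B16-F10 6 h red) and rCap score (open, other cells; filled, rCap-high), with 95% Poisson intervals. Itga2 is higher in both B16-F10 states than in both control states, and Itgav is lower in rCap-high cells of both libraries at this score depth, though not beyond counting error in control with the score at 4000 UMIs.

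The other genes of the pathway were read from 5 lists. The lists were chosen with earlier results of these data known, so list counts above the share of all genes are description and no test. Beside their counts stand the shares of all genes called higher and lower, 7.28% and 8.85% in gCap-like ECs and 6.07% and 7.39% in aCap-like ECs. Of 16 other integrin subunits, 5 were measured in gCap-like ECs, all at low levels. Itga4, the chain that binds Vcam1, was called higher in gCap-like ECs (0.409 and 1.06 CPM, 15 and 42 UMIs) and lower in aCap-like ECs, where its level is higher (27.3 and 16.8 CPM, -0.70, -0.96 to -0.44). Itga10 was called lower in aCap-like ECs (-1.24), and the 2 most abundant in gCap-like ECs, Itga10 (-0.26, -0.64 to 0.11) and Itga2b (0.36, -0.10 to 0.82), were not called. In aCap-like ECs, 0 of 4 were called higher (6.07% of all genes) and 2 lower (7.39%).

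Genes of integrin activation from inside the cell, such as talins, kindlins and Rap1 regulators, gave 0 calls in either direction among 13 measured of 16 in gCap-like and in aCap-like ECs, where the shares of all genes would give about 1, so 0 is near the background. Rap1a, a small GTPase that switches integrins on, was at 650 and 745 CPM (log2 ratio 0.20, 0.17 to 0.22) and Rasip1, a Rap1 effector of vessels, at 360 and 486 (0.44, 0.40 to 0.47) in gCap-like ECs. The list's median was 0.09 there, against -0.04 for all genes.

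Of the adhesion site genes, 6 of 21 measured were called higher in gCap-like ECs (28.6%, against 7.28% of all genes) and 0 lower (8.85%), and 2 of 20 were higher in aCap-like ECs (10%, against 6.07%) and 0 lower (7.39%). In gCap-like ECs these were Tns3 (0.98, 18.0 and 35.5 CPM), Src (0.87, 32 and 63 UMIs), Vasp (0.79), Bcar1 (0.78), Zyx (0.78) and Actn1 (0.62), which encode links from integrins to actin or their kinases and scaffolds. In aCap-like ECs they were Zyx (1.12, 8.78 and 19.1 CPM) and Vasp (0.71). The abundant Ptk2, focal adhesion kinase, was lower beyond counting error, 419 and 352 CPM (-0.25, -0.29 to -0.22), and Actn4 a little higher (0.15). The list's median was 0.15 in gCap-like and 0.03 in aCap-like ECs.

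Of 23 measured ligands made by gCap-like ECs, 5 were called higher (21.7%, against 7.28% of all genes) and 2 lower (8.70%, against 8.85%), and the median of the list was 0.43 on the log2 scale. Vcam1 was at 2.35 and 20.9 CPM (3.16, 2.83 to 3.49) and Ccn1, a matricellular ligand of alpha-v and alpha-6 integrins, at 11.7 and 29.3 (1.32). Fbln5 (0.99), Lamb1 (0.70) and Thbs1 (0.69) were also higher, while Fbn1 (-0.83) and Lama4 (-0.65) were lower. Col4a1 (876 and 1180 CPM, 0.43) and Col4a2 (481 and 702, 0.54), the collagen IV chains, were under 1.5-fold, and Col4a1 is on the study's rCap list.

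In aCap-like ECs, 4 of 16 ligands were called higher (25%, against 6.07% of all genes), Vcam1 (3.38, 6 and 52 UMIs), Ccn1 (1.47), Adam15 (1.13) and Lama5 (0.73), and 1 lower. The last was Edil3, a ligand of alpha-v integrins, at 832 and 542 CPM (-0.62, -0.66 to -0.57), an interval that reaches past the 1.5-fold line. The libraries filled the aCap-like clusters unequally, and the part of this in the aCap-like calls of the lists, such as Edil3 and Itga4, was not tested. Artery-like ECs had 6 of 18 ligands called higher and 2 lower (6.72% and 5.95% of all genes), vein-like ECs 5 of 19 and 2 (4.57% and 5.22%), and LEC-like ECs 3 of 15 and 0 (6.66% and 6.03%).

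Surface partners, the tetraspanins and receptors that sit beside integrins, had 6 of 12 called higher in gCap-like ECs (7.28% of all genes) and 5 of 12 in aCap-like ECs (6.07%), with 0 lower in either (8.85% and 7.39%). Cd82, a tetraspanin, was at 4.53 and 24.1 CPM in gCap-like ECs (2.41, 2.17 to 2.66) and also higher in aCap-like ECs (1.64, 1.21 to 2.08). Plaur, the urokinase receptor (1.24), Cd63 (1.18), Slc3a2 (0.93), Mcam (0.88) and Cd81 (0.68) were the others in gCap-like ECs, and all but Plaur were called in aCap-like ECs. The part of free RNA in low aCap-like levels, such as that of Cd63 (2.29 and 12.6 CPM), was not tested. Slc3a2 and Mcam are on the study's rCap list and are no independent evidence. Cav1 (1574 and 1255 CPM, -0.33) and Cd47 (1015 and 764 CPM, -0.41), the most abundant, were lower beyond counting error.

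**Figure D5:**
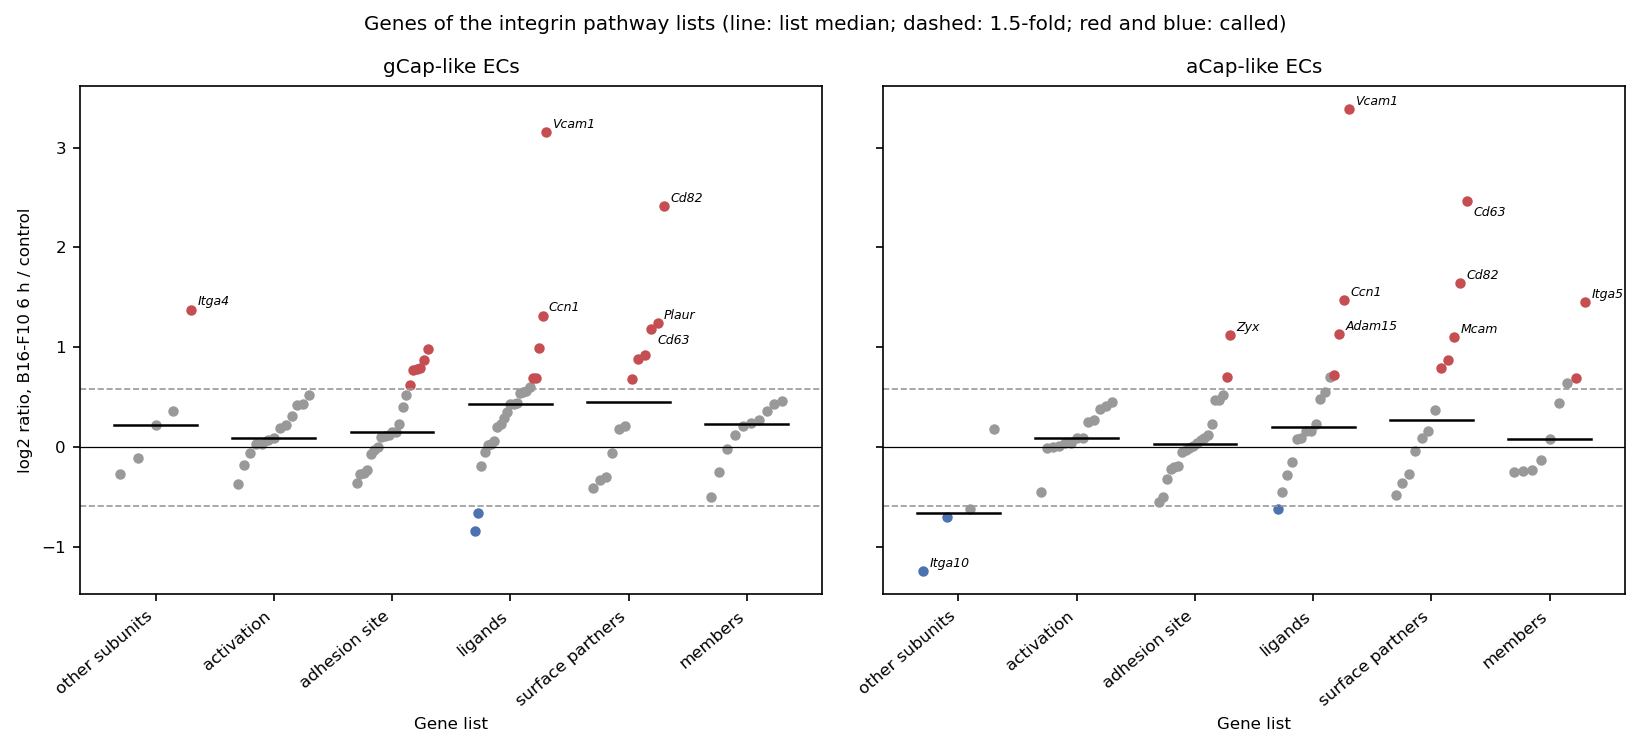
Log2 ratio of B16-F10 6 h over control for genes of 5 pathway lists and for the subunits (members), in gCap-like and aCap-like ECs; the line is the list median, dashed lines mark 1.5-fold, and red and blue mark called genes. Surface partners have 6 and 5 called higher, and the activation list has 0 called.

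The same lists were read in the Csf2-led ECs. Against gCap-like ECs of the same library, 14 of 21 adhesion site genes were called higher (15.5% of all genes) and 4 lower (36.4%), with a list median of 0.97 beside -0.38 for all genes. Actn1 was at 420 against 54.4 CPM (2.95), Zyx at 237 against 39.4 (2.59) and Vcl, vinculin, at 751 against 261 (1.53), while Ptk2b (-2.26), Tns2 (-2.16), Lims2 (-1.29) and Parva (-0.94) were lower. Among activation genes Flna was at 249 against 42.1 CPM (2.56) and Rasip1 at 1994 against 486 (2.04), with 6 of 13 called higher (15.5%) and 4 lower (36.4%). Of 22 ligands 11 were higher and 5 lower. Of 12 surface partners 4 were higher and 6 lower, with a median of -0.67. Cav1 was at 314 against 1255 CPM (-2.00), Nrp1 at 150 against 594 (-1.98) and Cd47 at 251 against 764 (-1.60). These genes were left out of the clustering, but the cells were grouped by other genes of the same libraries, so the values describe the cluster and are no test.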

How the data were processed

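Single-cell RNA sequencing of 1 control and 1 B16-F10 library was analysed. The authors deposited raw UMI counts per gene and barcode for all barcodes, unfiltered; the file headers give Cell Ranger 7.2.0, the study's methods name another version, and the genome is mm10. Whether introns were counted is not given in the sources used here. The libraries held 85794655 and 104978816 UMIs. Cells were filtered as stated above, the cells with the highest scrublet doublet scores were removed, up to a preset 0.8% per 1000 cells (6.72% and 6.66%), and genes were scaled within each library before clustering with scanpy 1.11.5 and leidenalg 0.10.2 (resolution 0.8, 30 components, 20 neighbours) without the integrin, pathway, rCap and interferon lists, which left 2911 variable genes and 23 clusters. Clusters were named from marker lists. The UMIs of a class in a library were added up and given as CPM, with exact Poisson 95% intervals for levels and exact conditional binomial intervals for ratios (scipy 1.17.1); both cover counting error only, and the step was tested on simulated data. Genes needed 50 UMIs over both sums. The subunits and all lists were chosen with earlier results of these data known. The 10 subunits are named; of each pathway list, at most the 6 largest called genes in gCap-like or aCap-like ECs and the 2 most abundant; Lama4 and the pathway genes named for Csf2-led ECs were chosen after their values were seen. Alternatives included Seurat 5.3.0 integration.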

Additional observations from a re-analysis of the deposited data

Results flagged for a closer look

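The log2 ratios of B16-F10 over control had opposite signs in a pair of vessel classes, each with a counting interval clear of 0, for Itga1, Itga3 and Itga9; other subunits had opposite signs with an interval across 0 in at least 1 class. With 1 library per group, none of these differences was tested. Itga1 was at 0.16 in artery-like and -0.46 in LEC-like ECs, a difference of 0.63. Itga3 was at 0.13 in gCap-like and -0.25 in aCap-like ECs, a difference of 0.38. Within the 7 gCap-like clusters, however, Itga3 was higher beyond counting error in 1 and lower in 1. In the deeper aCap-like cluster alone it was at -0.12. Itga9 was at 1.19 in LEC-like and -0.39 in artery-like ECs, a difference of 1.58.

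Barcodes outside the limits on genes per cell entered no comparison. Summed over these barcodes, subunits differed in both directions beyond counting error. The sum joins near-empty barcodes and cells over 5000 genes, and the latter held 8434071 control and 17339334 B16-F10 UMIs. Higher in the B16-F10 than in the control library (B16-F10 first) were Itga2 at 103 and 78.3 CPM, Itga5 at 74.7 and 46.7, Itga6 at 254 and 240.1, and Itgb1 at 641 and 605. Lower were Itga1 (log2 ratio -0.17), Itga3 (-0.27), Itgb3 (-0.25) and Itgb5 (-0.38). The share of all genes that differ in these barcodes was not computed.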

How the results depend on the processing

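Of 921 recomputed values of 102 results, 776 moved by less than the counting interval (counts by less than 1.5 times) and 141 by more. Another 4 changed sign from a main value whose counting interval lay clear of 0. Of them, Itga3 in all ECs became 0.05 (no upper limit of genes) and Itga1 in LEC-like ECs 0.25 (doublets kept). In artery-like ECs, Itga1 became -0.04 (gene lists kept in the clustering) and Itga9 0.11 (cells without other cells' markers). The cause was not tested. Some ratios with an interval across 0 also took both signs and are not among these 4, such as Itga6 in gCap-like ECs (-0.05 to 0.02).

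In gCap-like ECs, with at least 500 genes, under 10% mitochondrial UMIs, doublets kept and resolution 1.6, the log2 ratio of Itga1 was -0.17, -0.17, -0.14 and -0.13, that of Itgav -0.40, -0.34, -0.40 and -0.39, and that of Itgb1 0.14, 0.13, 0.13 and 0.13. Itga5 was 0.19 at resolution 1.6. Scaled by the median of all genes, Itga1 was -0.21, Itga6 0.02 and Itgb1 0.25. Thinned to 2000 UMIs, Itga6 was -0.05, Itga9 0.66, Itgb1 0.26 and Itgb3 0.95. Itga1 was -0.27 in cells without other cells' markers.

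Counts of called subunits changed too. In gCap-like ECs, 1 was called higher under 10% mitochondrial UMIs and in cells without other markers, 2 when thinned, and 3 at a fold limit below 1.5 (the lower limit), where 1 was lower. In aCap-like ECs, 1 was higher with doublets kept and at 2-fold, and 0 when thinned; with at least 500 genes and in the larger cluster alone the count was 2, but of Itga5 and Itga2 in place of Itga5 and Itga6. In artery-like ECs, 1 was higher with 500 genes, 10% mitochondrial UMIs, resolution 1.6 and cells without other markers, and 2 at the lower limit; 2 were lower with doublets kept, resolution 1.6 and the lower limit, and 0 with Seurat, thinning, per-cell means, cells without other markers and 2-fold. In vein-like ECs, 0 were higher with no upper limit and at 2-fold, and 1 lower at the lower limit. In LEC-like ECs, 0 were higher in the 5 and 4 cells without other markers, and 1 lower at the lower limit. In all ECs, 4 were higher at the lower limit, 1 at 2-fold and 0 without Csf2-led ECs, an alternative chosen after seeing the data, and 1 was lower with per-cell means and at the lower limit.

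In melanoma-like over gCap-like cells, thinning gave -7.56 for Itga1, -3.66 for Itga6 and 2.36 for Itgb3. For rCap-high over other cells, the 99th percentile gave -0.38 for Itga1, -0.08 for Itga6 and 0.22 for Itgb1, and a score at 4000 UMIs gave -0.07 for Itga6. No paired analysis was possible because control and B16-F10 have 1 library apiece, and no replicate could be left out. Depth limits the values of the 8 control Csf2-led cells, the 58 and 51 LEC-like and the 78 melanoma-like cells.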
